A study of Mus musculus with 24 samples.

Results

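The liver transcriptome of α7HMZ mice was set against that of wild-type (WT) mice at 13:30, in the middle of the light phase (Zeitgeber time, ZT, 6.5). The α7HMZ mice carry an exon swap in Hnf4a, and the only HNF4α they express is of the P2 form (P2-HNF4α). The comparison took all 3 α7HMZ and all 3 WT livers of this time, which are 6 of the 24 libraries in the series and 6 of its 18 libraries from fed mice. The remaining fed libraries, from 10:30 (ZT 3.5) and 20:30 (ZT 13.5), were used to ask which genotype differences were particular to 13:30.

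Both genotypes were male, of a mixed 129/Sv plus C57BL/6 background, 16 to 20 weeks old and fed ad libitum, and nothing else was done to them. The swapped allele is in every tissue and is present throughout life, so that its effects in liver, in other tissues and in development cannot be told apart. Poly(A)+ RNA was sequenced from 1 liver per library, with all 6 libraries on 1 flow cell. The 3 mice of a group were taken within 30 min of each other, and p-values measure the spread between them.

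HNF4α is a nuclear receptor that keeps hepatocytes differentiated. It is transcribed from a pair of promoters: P1 drives the isoforms of the adult liver, and P2 drives isoforms with a different N terminus that are found in fetal liver, in some liver tumours and in gut. The liver also runs a circadian clock, in which CLOCK and BMAL1 (the product of Arntl) drive the genes of their own repressors, and many enzymes of lipid, bile acid and drug metabolism follow this rhythm or the daily rhythm of feeding.

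The 3 α7HMZ libraries held 14699690 to 22557384 reads assigned to genes and the 3 WT libraries 16200783 to 28445590. Log-scale expression profiles correlated at 0.989 to 0.994 between livers of 1 genotype and at 0.971 to 0.980 between genotypes. Levels are given in CPM, a gene's reads scaled to a common library size with TMM factors, which also correct for composition. The tissue matched its label: the 10 hepatocyte markers (Alb, Ttr, Apoa1 and others) summed to 101480 to 113590 CPM in α7HMZ livers and to 114570 to 131900 CPM in WT livers. Markers of Kupffer cells summed to 459 to 564 CPM in the α7HMZ group and 478 to 527 CPM in the WT group, those of stellate cells to 384 to 493 CPM in α7HMZ and 386 to 531 CPM in WT, and those of lymphocytes to 10.2 to 12.9 CPM in α7HMZ and 11.1 to 11.9 CPM in WT. The cholangiocyte markers stood higher, at 69.6 to 85.6 CPM in the α7HMZ group and 49.1 to 56.5 CPM in the WT group. The erythroid markers stood lower, at 52.7 to 64.7 CPM in the α7HMZ group and 171 to 179 CPM in the WT group. Nearly all of the erythroid sum was Alas2, the heme synthesis enzyme of red cell precursors and the 1 erythroid marker that entered the test. Alas2 was at 55.9, 52.5 and 64.6 CPM in α7HMZ livers, against 178, 171 and 173 CPM in WT livers (log2 fold change -1.59), and was named after its values were seen.

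Hnf4a itself (chr2:163506811-163572907, build GRCm38) was read at 896, 796 and 1017 CPM in α7HMZ livers and at 1100, 1033 and 971 CPM in WT livers. The groups overlapped, and the difference did not pass the test (log2 fold change -0.20 ± 0.17 SE, edgeR adjusted p = 0.53). This count covers the whole gene and does not separate P1 from P2 transcripts, so it does not check the allele. Of 13334 genes tested, 825 rose (6.19%) and 881 fell (6.61%) in α7HMZ livers at an adjusted p under 0.05, which is 12.8% in either direction. The number that rose was 445 without WT replicate 1, 523 without WT replicate 3, 543 without α7HMZ replicate 1 and 479 without α7HMZ replicate 2 of 13:30. At least 2-fold changes were seen in 301 of the genes that rose and 311 of those that fell, and at least 4-fold changes in 68 and 97. The 3 α7HMZ and 3 WT libraries did not overlap in 4707 of all genes tested (35.3%). α7HMZ livers were above WT in 2386 of these (17.9%) and below in 2321 (17.4%), so non-overlap was common. In the RNA of a whole liver piece, fewer cells of a type and less RNA per cell cannot be told apart.

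**Figure D1:**
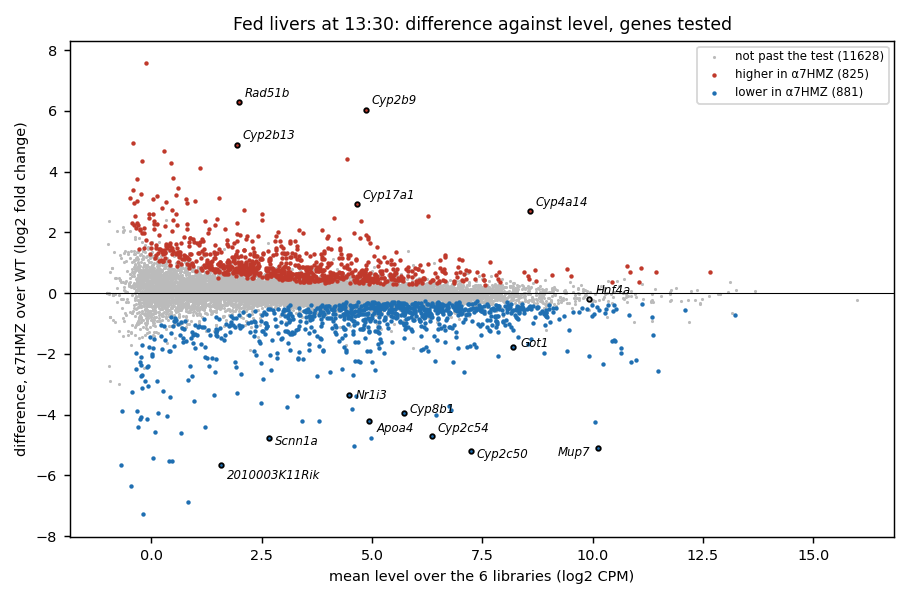
Difference between α7HMZ and WT livers at 13:30 (log2 fold change, vertical axis) against mean level over the 6 libraries (log2 CPM, horizontal axis) for the 13334 genes tested, with the 825 genes that rose and the 881 that fell in colour. Among the 1962 genes above 64 CPM, 72 rose and 324 fell.

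The direction of change depended on how abundant a gene was. Of 1962 genes above 64 CPM, 72 rose and 324 fell, whereas of 3771 genes between 4 and 16 CPM, 315 rose and 142 fell. The split between directions also depended on scaling: with upper quartile factors, 1060 genes rose and 705 fell, and the median of all genes stood at 0.07 in place of 0.0028 on the log2 scale. Offsets that remove each library's trend with the GC content of genes and then match its quantiles to the others, called GC offsets here, gave 938 higher and 786 lower genes.

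The largest changes, taken among genes whose groups did not overlap, ranged from near-complete switches to graded changes in genes read in both genotypes. Rad51b (chr12:79297282-79848260), which acts in DNA repair by recombination, was read at 20.1, 27.5 and 14.6 CPM in α7HMZ livers, against 0.415, 0.165 and 0.227 CPM in WT livers. All 3 α7HMZ livers were far above all WT livers, and the difference was the largest increase among the genes named by the rule (log2 fold change 6.28 ± 0.35 SE, edgeR adjusted p = 8.98e-10). Cyp2b9 and Cyp2b13, cytochrome P450 genes that in mice are expressed mostly in female liver, were also almost off in WT males. Cyp2b9 was at 246, 257 and 184 CPM in α7HMZ livers, against 4.33, 1.62 and 4.83 CPM in WT livers (6.04 ± 0.41, adjusted p = 9.49e-09). Cyp2b13 was at 19.6, 16.4 and 8.78 CPM in α7HMZ livers, against 0.737, 0.165 and 0.739 CPM in WT livers (4.89 ± 0.42, adjusted p = 1.93e-07). Reads of these near-identical genes may be shared between them.

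Pcp4l1, which encodes a small protein related to the calmodulin-binding PCP4, was read at 124, 92.1 and 70.2 CPM in α7HMZ livers and at 4.24, 4.2 and 4.89 CPM in WT livers (log2 fold change 4.43 ± 0.24 SE, adjusted p = 7.4e-10). Cyp17a1, the steroid 17-hydroxylase and another female-biased liver gene, was at 63.4, 55.0 and 86.2 CPM in α7HMZ livers, against 7.88, 8.77 and 10.3 CPM in WT livers (2.93 ± 0.26, adjusted p = 3.86e-07). For both genes the WT livers were tightly grouped and every α7HMZ liver was several-fold above them. Cyp4a14, a fatty acid ω-hydroxylase induced through PPARα, was abundant in α7HMZ livers at 1027, 1116 and 975 CPM. It varied between WT livers, at 169, 66.1 and 249 CPM, and rose by 2.69 ± 0.40 on the log2 scale (adjusted p = 1.33e-04). The sulfotransferase gene Sult2a7 (3.13), the sodium-coupled citrate and succinate transporter Slc13a2 (2.73), and the uncharacterised 5330417C22Rik (4.12) and 1810064F22Rik (2.60) completed the 10 largest increases.

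**Figure D2:**
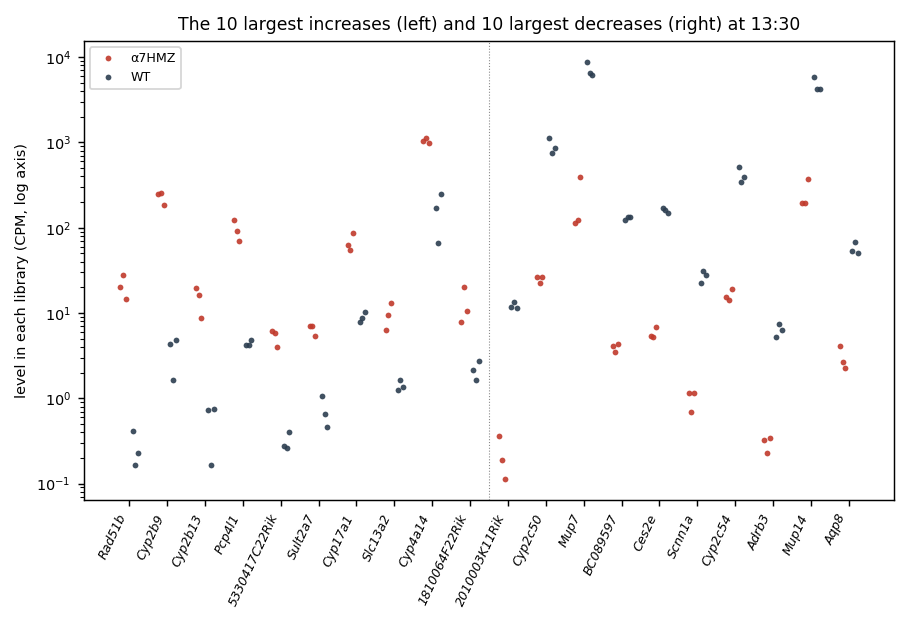
Level in each of the 3 α7HMZ and 3 WT livers at 13:30 (CPM, log axis) of the 10 genes with the largest increases and the 10 with the largest decreases. Points are single livers, α7HMZ left of WT. Non-overlap of the groups was a condition for choosing the 20 genes.

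Among the decreases, 2010003K11Rik had the largest fold. It was read at 0.360, 0.191 and 0.114 CPM in α7HMZ livers, against 11.7, 13.4 and 11.5 CPM in WT livers (log2 fold change -5.65 ± 0.45 SE, adjusted p = 9.44e-08). Cyp2c50, a Cyp2c epoxygenase, was at 26.6, 22.5 and 26.2 CPM in α7HMZ livers, against 1124, 762 and 872 CPM in WT livers (-5.19 ± 0.25, adjusted p = 9.82e-11). Its neighbour Cyp2c54 fell by 4.70 on the log2 scale. Mup7, which encodes a major urinary protein that carries pheromones, was at 112, 122 and 391 CPM in α7HMZ livers and at 8872, 6443 and 6246 CPM in WT livers (-5.11 ± 0.59, adjusted p = 9.04e-06). In each of these genes the groups were apart by more than 10-fold. Cyp2c and Mup genes have near-identical copies, so that the split of reads among the copies is uncertain.

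Scnn1a (chr6:125314271-125344943), the α subunit of the epithelial sodium channel, was at 1.15, 0.688 and 1.14 CPM in α7HMZ livers and at 22.5, 31.0 and 27.9 CPM in WT livers (log2 fold change -4.78 ± 0.17 SE, adjusted p = 1.84e-12). BC089597 was at 4.10, 3.52 and 4.28 CPM in α7HMZ livers, against 124, 134 and 135 CPM in WT livers. Scnn1a and BC089597 had the smallest adjusted p of the 10 largest decreases, and their groups were far apart. Aqp8, a water channel of the hepatocyte, was at 4.06, 2.64 and 2.28 CPM in α7HMZ livers, against 52.7, 67.7 and 50.5 CPM in WT livers (-4.22 ± 0.29). Ces2e (-4.78), the β3-adrenergic receptor gene Adrb3 (-4.39) and Mup14 (-4.23) were the other genes among the 10 largest decreases.

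Of 20 hepatocyte transcription factor genes, 2 rose, among them Tcf7l2 by 0.85 on the log2 scale, and none fell. The share called, 10%, was near the 12.8% over all genes tested. With any 1 of the 6 livers left out, 0 or 1 rose. Cebpa did not pass the test (0.01, adjusted p = 0.995). Of 24 nuclear receptors and coregulators, 4 fell and none rose (2 fell without WT replicate 2 or α7HMZ replicate 2). Nr1i3, which encodes the xenobiotic receptor CAR, was at 8.88, 5.85 and 5.47 CPM in α7HMZ livers, against 57.9, 73.9 and 77.7 CPM in WT livers. The groups were apart, and Nr1i3 fell by 3.36 ± 0.20 on the log2 scale, the most of this list (edgeR adjusted p = 2.36e-09). Ppara (-0.62) and Ppargc1b (-0.69) were also among those that fell. Ppara lost its call without any 1 liver other than α7HMZ replicate 1 (adjusted p 0.0749 to 0.155), with upper quartile factors (0.0554) and with GC offsets (0.16). Ppargc1b lost it without WT replicate 2, α7HMZ replicate 1 or α7HMZ replicate 2 (adjusted p 0.0653 to 0.141). Nr1i2, which encodes PXR, a receptor related to CAR, did not pass the test (-0.18, adjusted p = 0.503).

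The xenobiotic P450 list held the largest number of decreases, although a larger share of the major urinary protein genes fell (13 of 17). Of 44 xenobiotic P450 genes, 22 fell and 5 rose (3 rose without α7HMZ replicate 2), with a median log2 fold change of -0.49, against 0.0028 over all genes tested. Cyp2a12, a hydroxylase of steroids and bile acids in mice, was at 29.3, 24.9 and 35 CPM in α7HMZ livers, against 446, 359 and 367 CPM in WT livers (-3.72 ± 0.21, adjusted p = 9.37e-10). Cyp2d26 was at 209, 203 and 213 CPM in α7HMZ livers, against 665, 679 and 653 CPM in WT livers (-1.68 ± 0.10, adjusted p = 1.82e-09). In both genes replicate livers lay close together and the groups were well apart. Cyp2b10, the classical target of CAR, was at 1.87, 1.34 and 0.855 CPM in α7HMZ livers and at 18.9, 14.2 and 18.6 CPM in WT livers (-3.61 ± 0.45, adjusted p = 2.24e-05), and so went the opposite way to Cyp2b9 and Cyp2b13. It is named here after its values were seen.

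Of 43 phase II conjugating enzymes, 16 fell and 4 rose. Only 9 fell without WT replicate 1 or α7HMZ replicate 1, 2 rose without α7HMZ replicate 2, and 9 rose with GC offsets. The sulfotransferases Sult1b1 (6.08, 4.17 and 4.90 CPM in α7HMZ livers, against 38.5, 31.6 and 29.8 CPM in WT livers) and Sult1a1 (82.1, 64.4 and 83.7 CPM in α7HMZ livers, against 239, 280 and 264 CPM in WT livers) had log2 fold changes of -2.72 and -1.77, with no overlap. Of 15 carboxylesterase genes, 7 fell and 3 rose (5 rose with upper quartile factors or GC offsets). The 3 that rose were liver esterases of triglyceride and drug hydrolysis: Ces1b was at 271, 322 and 284 CPM in α7HMZ livers and at 132, 141 and 154 CPM in WT livers (log2 fold change 1.04), while Ces1d rose by 0.76 and Ces1f by 0.58. None of these 3 passed the test at 10:30 or 20:30, but the test of the difference between times gave adjusted p values of 0.148, 0.0846 and 0.0793, so they were not shown to be particular to 13:30. Ces copies are also near-identical.

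Genes with a sex difference in mouse liver changed in both directions. Of 17 major urinary protein genes, 13 fell and none rose (median -1.80). Of 23 male-biased genes, 10 fell and 2 rose (median -0.43, or -0.16 with GC offsets, where 4 rose), and of 26 female-biased genes, 7 rose and 2 fell, Cyp2b10 being 1 of the 2. The male-biased genes that rose were 1 without WT replicate 2 or 3 or α7HMZ replicate 2 or 3, and the female-biased genes that fell were 1 without WT replicate 2 or α7HMZ replicate 1 or 2. The female-biased list had a median of -0.05, which was 0.02 with upper quartile factors, and 17 of the 26 passed in neither direction. Among growth hormone and IGF axis genes, which set this sex pattern, 1 of 17 rose (Socs3) and 1 fell (Ghr), and neither call was steady. Ghr was at -0.20 with GC offsets (adjusted p = 0.294) and missed the threshold when either WT replicate 1 (adjusted p = 0.0761) or the third α7HMZ liver was left out (adjusted p = 0.0621). Socs3 missed it with GC offsets (adjusted p = 0.0539), with a replicate block (0.0828), with the 6 libraries of 13:30 alone (0.0752) and without any 1 liver other than α7HMZ replicate 1 (0.0542 to 0.177). Bcl6, a male-biased repressor of female-biased liver genes, was at 50.9, 19.3 and 57.8 CPM in α7HMZ livers and at 7.56, 8.80 and 6.2 CPM in WT livers. It rose by 2.49 ± 0.77 on the log2 scale with groups apart (adjusted p = 0.0392), but not without any 1 liver other than α7HMZ replicate 2 (adjusted p 0.0835 to 0.127). It is named here after its values were seen.

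Some bile acid genes fell. Of 28 genes for synthesis and transport, 10 fell and 2 rose (median -0.22). With GC offsets 6 fell and the median was -0.06. Cyp8b1, the sterol 12α-hydroxylase that commits bile acids to cholic acid, was at 13.8, 5.32 and 24.5 CPM in α7HMZ livers and at 261, 205 and 202 CPM in WT livers. The α7HMZ livers varied among themselves, but all were far below WT livers (log2 fold change -3.96 ± 0.49 SE, adjusted p = 1.98e-05). Cyp7a1, the rate-limiting enzyme of the classical route, did not pass the test (-0.63, adjusted p = 0.349). The uptake transporters Slco2b1 (-1.53) and Slc10a1 (-0.60) and the conjugating enzyme Slc27a5 (-0.94) fell. The number of bile acid genes that fell was 6 without WT replicate 1 or α7HMZ replicate 2 and up to 9 without another liver, and 1 rose without WT replicate 1 or 3 or α7HMZ replicate 2 or 3.

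Promoter sequence is shown for Cyp8b1 and 2010003K11Rik, because these are strong decreases whose upstream sequence holds a match to an HNF4-type motif. Both run 5′ to 3′ on the coding strand, cover the 250 bases before the RefSeq start (mouse build GRCm38), and have the match in capitals. Cyp8b1 lies at chr9:121916306-121916555 on the minus strand and holds the HNF4 motif CAAAGTCCA, whose first base is 67 bases before the start. 2010003K11Rik lies at chr19:4498584-4498833 on the minus strand and holds the direct-repeat letters CAAAGGTCA on the other strand, 34 bases before the start.
Cyp8b1: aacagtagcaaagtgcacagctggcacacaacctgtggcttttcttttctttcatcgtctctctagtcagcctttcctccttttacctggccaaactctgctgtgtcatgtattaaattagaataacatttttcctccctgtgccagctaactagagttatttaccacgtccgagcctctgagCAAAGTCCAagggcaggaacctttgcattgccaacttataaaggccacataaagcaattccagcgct
2010003K11Rik: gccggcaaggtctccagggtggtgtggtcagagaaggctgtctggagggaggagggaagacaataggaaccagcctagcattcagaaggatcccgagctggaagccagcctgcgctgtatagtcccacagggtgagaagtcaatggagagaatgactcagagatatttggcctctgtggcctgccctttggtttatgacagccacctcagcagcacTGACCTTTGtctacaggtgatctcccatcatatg
Both strands of the 250 bases before each start were searched. CAAAGTCCA was found in 0.568% of the 10556 tested genes that matched a RefSeq promoter. It was found in 11 of 681 genes that fell (1.62%) and in 1 of 643 genes that rose (0.156%). The 11 were Aspdh (-3.40), Treh (-4.14), Gm5549 (-5.43), Slc3a1 (-1.87), Cyp2c70 (-1.43), Aadat (-1.13), Agxt2 (-0.92), Cyp2c67 (-0.90), Sec16b (-0.70), Pafah2 (-0.59) and Cyp8b1, and the 1 was Pla2g15 (0.81). Cyp2c67 missed the threshold with GC offsets (adjusted p = 0.071) and without WT replicate 1 or 3 or α7HMZ replicate 1 or 2 (0.0821 to 0.122). CAAAGGTCA was in 0.464% of tested genes, 0.881% of those that fell and 0.622% of those that rose. These counts describe the letters, not binding.

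Of 25 fatty acid and triglyceride synthesis genes, 12 fell and 2 rose, and the median log2 fold change was -0.61 (-0.38 with GC offsets). Srebf1, which encodes their main transcription factor, was 1 of the 2 that rose, and 1 rose without WT replicate 1 or α7HMZ replicate 3. Scd1, the stearoyl-CoA desaturase, was at 1122, 1681 and 866 CPM in α7HMZ livers, against 4580, 10360 and 7005 CPM in WT livers. WT livers varied more than 2-fold but did not overlap with α7HMZ livers, and Scd1 fell by 2.58 ± 0.29 on the log2 scale (adjusted p = 6.54e-06). Scd2 (-1.92), the elongase Elovl5 (-1.68), the desaturase Fads2 (-1.21), Acss2 (-1.43), Acacb (-1.82) and Thrsp (-2.06) fell as well, although Thrsp missed the threshold without WT replicate 1 or α7HMZ replicate 2 or 3 (adjusted p 0.0551 to 0.0636). Srebf1 was at 179, 166 and 230 CPM in α7HMZ livers and at 50.4, 121 and 91.9 CPM in WT livers, and rose by 1.12 ± 0.28 (adjusted p = 0.0127, but 0.0689 without WT replicate 1 and 0.0602 without α7HMZ replicate 3). Mid1ip1, an activator of acetyl-CoA carboxylase, rose by 1.19.

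Lpin1 encodes a phosphatidate phosphatase of triglyceride synthesis. It was read at 315, 153 and 273 CPM in α7HMZ livers, against 1080, 1010 and 826 CPM in WT livers, with no overlap (log2 fold change -1.98 ± 0.38 SE, adjusted p = 0.00182). The differences were 0.51 at 10:30 and -0.75 at 20:30, neither past the test. The difference at 13:30 minus that at 10:30 was -2.48 (adjusted p = 0.0274). This call was lost without WT replicate 1 or 3 or α7HMZ replicate 2 or 3 of 13:30 (adjusted p 0.0505 to 0.0704). It was also lost without WT replicate 1 or 2 or α7HMZ replicate 2 of 10:30 (0.0755 to 0.0806).

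Of 25 cholesterol synthesis and uptake genes, 11 fell and none rose (median -0.67), with 7 lower without WT replicate 1 or α7HMZ replicate 3. The 11 included Hsd17b7 (51.4, 32.6 and 33.0 CPM in α7HMZ livers, against 104, 87.0 and 84.9 CPM in WT livers, log2 fold change -1.23), Pmvk (-1.18), Idi1 (-1.05) and Mvd (-1.18), the last with an adjusted p of 0.0595 to 0.103 without WT replicate 1 or α7HMZ replicate 2 or 3. Of 23 apolipoprotein and VLDL genes, 7 fell and none rose (4 fell without WT replicate 2, α7HMZ replicate 1 or α7HMZ replicate 2). Apoa4 was at 7.62, 6.16 and 6.84 CPM in α7HMZ livers, against 110, 148 and 129 CPM in WT livers (-4.22 ± 0.37, adjusted p = 2.72e-07). Apoc3, an inhibitor of triglyceride clearance, was at 357, 340 and 371 CPM in α7HMZ livers, against 1323, 1411 and 1250 CPM in WT livers (-1.90), and Apoc2 fell by 1.78. Of 18 lipid droplet genes, 5 fell and 1 rose, led by Cideb, which helps to load VLDL with lipid. In this list 3 fell with upper quartile factors or without WT replicate 1 or 3 or α7HMZ replicate 1 or 3, and the number that rose was 0 without WT replicate 1 and 2 without WT replicate 2. Cideb was at 51.9, 47.8 and 55.7 CPM in α7HMZ livers, against 253, 253 and 238 CPM in WT livers (-2.26 ± 0.10, adjusted p = 3.46e-11).

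Of 32 fatty acid oxidation and ketogenesis genes, 6 rose and 2 fell (median 0.17). The number that rose was 11 with upper quartile factors and 17 with GC offsets (median 0.36), and the number that fell was 1 without WT replicate 1 or α7HMZ replicate 3 and 0 without α7HMZ replicate 2. Beside Cyp4a14, the mitochondrial thioesterase Acot2 (1.45), its cytosolic relative Acot1 (1.09), the carnitine acetyltransferase Crat (1.10) and the pantetheinase Vnn1 (1.53) rose. Cpt1a, which catalyses the entry step of mitochondrial oxidation, was among those that fell (-0.64), but was at -0.37 with GC offsets (adjusted p = 0.181) and missed the threshold without α7HMZ replicate 2 (adjusted p = 0.0526). Vnn1 was at 63.4, 56.3 and 53.8 CPM in α7HMZ livers and at 24.2, 17.8 and 18.3 CPM in WT livers, with no overlap.

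Of 29 glucose and glycogen genes, 5 fell and 1 rose, where 0 rose without WT replicate 1 or α7HMZ replicate 1 or 2 and 5 rose with GC offsets. Ppp1r3g, a glycogen-targeting subunit of protein phosphatase 1, fell by 3.55 but was low in every liver, at 0.432, 0.382 and 0.228 CPM in the α7HMZ group and at 3.96, 6.02 and 2.67 CPM in the WT group. Amino acid and urea cycle genes fell in 13 of 40 cases and rose in none (median -0.32), whereas with GC offsets 7 fell and 4 rose (median -0.14). Bhmt, which remethylates homocysteine, was at 788, 658 and 1126 CPM in α7HMZ livers, against 2917, 2337 and 2186 CPM in WT livers (-1.53). Haao, an enzyme of tryptophan breakdown, fell by 1.12. The number of lower genes on this list was 8 without α7HMZ replicate 1 or 2.

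**Figure D3:**
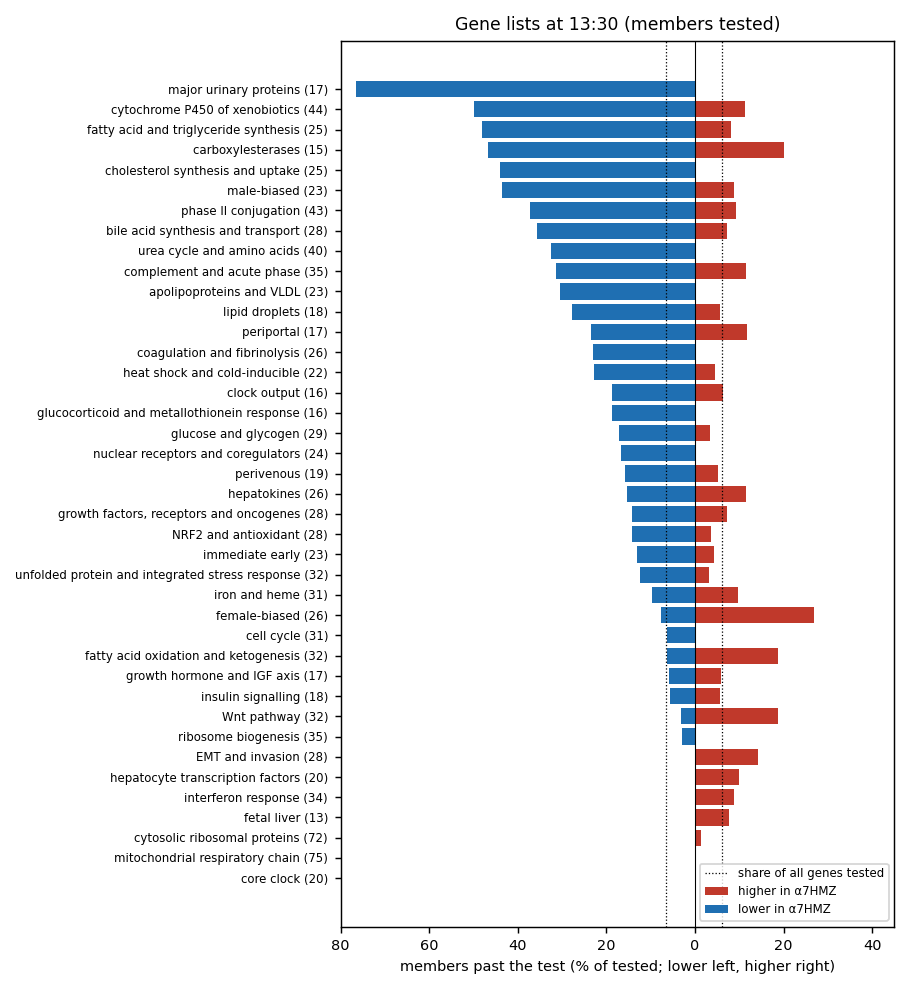
Share of tested members (horizontal axis, %) that rose (right) or fell (left) in α7HMZ livers at 13:30, for each gene list with its number of tested members. Dotted lines mark the share over all 13334 genes tested, 6.19% higher and 6.61% lower; 22 of 44 xenobiotic P450 genes and 13 of 17 major urinary protein genes fell.

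Among secreted plasma proteins, 6 of 26 coagulation genes fell and none rose (3 rose with GC offsets), and of 35 complement and acute phase genes, 11 fell and 4 rose (8 rose with GC offsets). C8g, the γ chain of complement component 8, was at 49.5, 59.4 and 57.6 CPM in α7HMZ livers, against 347, 336 and 319 CPM in WT livers (log2 fold change -2.59). Haptoglobin (Hp) was at 2954, 2665 and 3147 CPM in α7HMZ livers and at 1663, 1780 and 1551 CPM in WT livers (0.81), and C3 rose by 0.69. The groups were apart for all 3 genes. Of 26 hepatokine genes, 4 fell and 3 rose, including Inhbe (-1.32), Lect2 (-0.99) and Serpinf1 (-0.98), which encodes the anti-angiogenic factor PEDF, and Fst (1.28) and Lepr (1.26). In this list 2 fell without WT replicate 1, when Inhbe missed the threshold (adjusted p = 0.0539), and 1 rose without α7HMZ replicate 2, when Fst (adjusted p = 0.214) and Lepr (0.0682) missed it. Of 34 interferon response genes, 3 rose and none fell (Usp18 1.30, Irf1 0.77, Ddx58 0.41), a share near that over all genes. Only 1 rose without WT replicate 3 or α7HMZ replicate 2 or 3. Irf1 missed the threshold without any 1 liver other than α7HMZ replicate 1 (adjusted p 0.0561 to 0.215), and Ddx58 did not pass without WT replicate 3 or any α7HMZ replicate (0.0751 to 0.147).

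Of 28 genes for growth factors, their receptors and oncogenes, 2 rose and 4 fell, the first a share near that over all genes, and 1 fell without WT replicate 2 or α7HMZ replicate 2 or 3 (2 without WT replicate 3). Fgfr1 was at 19.4, 18.2 and 20.0 CPM in α7HMZ livers and at 7.92, 7.71 and 7.90 CPM in WT livers, with very little spread (1.29 ± 0.14, adjusted p = 4.2e-06). Myc was at 2.41, 20.5 and 12.3 CPM in α7HMZ livers, against 3.41, 4.13 and 3.64 CPM in WT livers: 1 α7HMZ liver lay below all WT livers, and the difference did not pass the test (1.64, adjusted p = 0.08). Src (0.76, adjusted p = 0.0722) missed the threshold. Its groups did not overlap, as in 35.3% of all genes tested. Ccnd1, which encodes cyclin D1, was lower by 0.70 (19.3, 14.7 and 12.9 CPM in α7HMZ livers, against 22.9, 27.1 and 26.1 CPM in WT livers, adjusted p = 0.0226). Its adjusted p was 0.0672 to 0.11 without WT replicate 2 or 3 or α7HMZ replicate 2 or 3.

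Of 32 Wnt pathway genes, 6 rose and 1 fell. The secreted Wnt inhibitor Notum was at 36.9, 38.9 and 31.9 CPM in α7HMZ livers and at 18.9, 24.1 and 21.8 CPM in WT livers (0.73, adjusted p = 0.00172). The ligand Wnt5a (1.67), the acyltransferase Porcn that modifies Wnt ligands (0.92) and the transcription factor Tcf7l1 (0.76) also rose, while Ctnnb1, which encodes β-catenin, did not pass the test (0.02, adjusted p = 0.941). The number of Wnt genes that rose was 2 without WT replicate 1 and 3 without α7HMZ replicate 2, and 2 fell without α7HMZ replicate 1. Porcn (adjusted p = 0.068) and Tcf7l1 (0.0604) missed the threshold without WT replicate 1, and Porcn (0.0607) without α7HMZ replicate 2. Of 28 genes of epithelial-to-mesenchymal transition and invasion, 4 rose and none fell, and 3 of the 4 were matrix metalloproteinases: Mmp19 (70.0, 69.8 and 74.7 CPM in α7HMZ livers, against 41.0, 43.5 and 46.3 CPM in WT livers, 0.71), Mmp15 (0.85) and Mmp14 (0.67, adjusted p = 0.0297). The fourth was Zeb1 (0.40). Only 2 rose without WT replicate 1 or α7HMZ replicate 1 or 2: Mmp14 missed the threshold in these cases (adjusted p 0.0974 to 0.153), and Zeb1 without any 1 liver other than WT replicate 2 (0.0775 to 0.15). Snai1 and Snai2 did not pass the test. Of 9 cholangiocyte markers tested, 3 rose, among them Sox9 (1.24) and Spp1 (0.50), and Tff3 fell (-3.06), while the keratins Krt7 and Krt19 lay between 0.342 and 1.51 CPM in all 6 livers. Only 1 of these markers rose without WT replicate 1 or 3 or α7HMZ replicate 1 or 2, Spp1 missing the threshold each time (adjusted p 0.0616 to 0.148), and Tff3 missed it without WT replicate 2 or 3 or α7HMZ replicate 1 or 2 (0.0745 to 0.116). The part of bile duct cells in the genes that rose was not tested.

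The core clock did not differ in a way that passed the test: 0 of 20 genes rose or fell by edgeR at an adjusted p under 0.05, while 2 were higher and 4 lower at an unadjusted p under 0.05 and DESeq2 called 1 higher. Arntl was at 1.11, 0.994 and 0.855 CPM in α7HMZ livers and at 1.89, 2.08 and 1.59 CPM in WT livers. The groups did not overlap, as in 35.3% of all genes tested, and the difference missed the threshold (-0.90 ± 0.39, adjusted p = 0.154). Per3 was at 40.2, 38.4 and 42.8 CPM in α7HMZ livers, against 18.4, 25.6 and 30.0 CPM in WT livers (0.72 ± 0.24, adjusted p = 0.0604). Dbp, the clock-controlled PAR bZIP gene, overlapped fully between the genotypes, at 96.1, 119 and 122 CPM in α7HMZ livers and at 96.2, 122 and 118 CPM in WT livers. Clock overlapped between groups (-0.27), and its difference at 13:30 minus that at 20:30, when Clock was higher (0.71), was -0.98 (adjusted p = 0.0219). This call was lost without any 1 of 6 livers (adjusted p 0.0543 to 0.0791), the last value being without WT replicate 3 of 20:30. Of 16 clock output genes, Elovl3 (-1.82), Nampt (-0.72) and Insig2 (-0.69) fell and Wee1 rose (0.93). Nampt had an adjusted p of 0.0515 without WT replicate 1 of 13:30.

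A few genes of the endoplasmic reticulum stress response fell at 13:30. Of 32 unfolded protein and integrated stress response genes, 4 fell and 1 rose, and 25 of the 32 had a fold change below 0. Herpud1, which acts in degradation of misfolded proteins, was at 262, 168 and 265 CPM in α7HMZ livers, against 829, 611 and 561 CPM in WT livers (-1.52 ± 0.27, adjusted p = 0.000709). Its partners Syvn1 (-1.29) and Sel1l (-0.59) and the chaperone gene Dnajb9 (-1.08) fell too. For these 3 genes WT replicate 1 was the highest liver, with Syvn1 at 64.1, 71.5 and 108 CPM in α7HMZ livers, against 316, 119 and 159 CPM in WT livers. Without that liver, the Syvn1 difference was -0.78 (adjusted p = 0.103), the Sel1l difference -0.31 (adjusted p = 0.25) and the Dnajb9 difference -0.58 (adjusted p = 0.292), and 1 gene of the list fell and 2 rose. Sel1l (adjusted p 0.0909 and 0.0938) and Dnajb9 (0.107 and 0.0879) also missed the threshold without α7HMZ replicate 1 or 2, when 2 genes fell, as with GC offsets. Dnajb9 missed it without α7HMZ replicate 3 (0.0649) and with a replicate block (0.0979). Asns, the asparagine synthetase induced by amino acid shortage, went the other way, at 17.9, 18.5 and 26.5 CPM in α7HMZ livers and at 3.36, 6.98 and 5.40 CPM in WT livers (1.98 ± 0.32, adjusted p = 0.000381).

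Of 75 genes of the mitochondrial respiratory chain, 0 rose or fell by edgeR and by DESeq2 (1 higher and 2 lower at an unadjusted p under 0.05), whereas 23 were lower at 20:30. Of 72 cytosolic ribosomal protein genes, 1 rose, although 68 of 72 had a fold change above 0, and 32 rose at 10:30. None rose at 13:30 with any 1 of its livers left out, whereas 40 rose with GC offsets. Of 31 cell cycle genes, 2 fell (6.45%, near the 6.61% over all genes tested) and none rose. Of 35 ribosome biogenesis genes, 1 fell (2.86%) and none rose. The genes that fell were 0 or 1 on the cell cycle list with any 1 liver left out, and 5 on the ribosome biogenesis list without WT replicate 2. Glucocorticoid and metallothionein response genes fell in 3 of 16 cases (Fkbp5 -0.67, Klf9 -0.62 and Pnpla2 -0.55, median -0.64), and rose in none. Fkbp5 missed the threshold without WT replicate 2 or 3 or α7HMZ replicate 1 or 2 (adjusted p 0.0916 to 0.156) and with upper quartile factors (0.058) or GC offsets (0.0781). Of 28 NRF2 and antioxidant genes, 4 fell and 1 rose, and of 31 iron and heme genes, 3 fell and 3 rose. Of 19 perivenous zonation markers 3 fell and 1 rose, and of 17 periportal markers 4 fell and 2 rose. These counts were small and moved with single livers. Perivenous genes that fell were 1 without any WT replicate or without α7HMZ replicate 2, and 2 rose without WT replicate 2. Periportal genes that fell were 2 without WT replicate 2 or with GC offsets, and 0 or 1 rose with any 1 liver left out. The iron and heme genes that rose were 1 without WT replicate 1 or α7HMZ replicate 1 and 5 with GC offsets, and the NRF2 genes that rose were 2 without WT replicate 2 and 4 with GC offsets.

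Where a list is said to hold no gene in a direction, the count at an unadjusted p under 0.05 by edgeR was 0 for hepatocyte transcription factors (lower) and for cholesterol, apolipoprotein, major urinary protein, coagulation, glucocorticoid and ribosome biogenesis genes (higher). It was 1 for nuclear receptors (higher), interferon response (lower) and invasion genes (lower), and 2 for amino acid and cell cycle genes (higher). DESeq2 called 0 in all of these but the amino acid list, where it called 1.

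Most changes at 13:30 were also seen, in the same direction, at another time of day. More genes passed the test at 10:30 (1115 higher, 8.36%, and 1197 lower, 8.98%, or 17.3% in all) and at 20:30 (1105 higher, 8.29%, and 1446 lower, 10.8%, or 19.1% in all), where differences were also wider: the median absolute log2 fold change over all genes tested was 0.252 at 10:30, 0.196 at 13:30 and 0.266 at 20:30. Of the genes that fell at 13:30, 512 also fell at 10:30 (58.1% of the 13:30 list and 42.8% of the 10:30 list) and 545 at 20:30 (61.9% and 37.7%). Of those that rose, 291 also rose at 10:30 (35.3% and 26.1%) and 353 at 20:30 (42.8% and 31.9%). All 3 times shared 410 lower and 183 higher genes, that is 46.5% and 22.2% of the 13:30 lists.

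Rad51b, Cyp2b9, Cyp2c50, Scnn1a, Nr1i3 and Cyp8b1 belong to the changes that pass at every fed time. Hsd17b7, Slc27a5 and Fgfr1 do so as well. A call at 13:30 alone was seldom a difference between times: 350 higher and 213 lower genes passed at 13:30 only, but 204 and 92 of them had the same sign at both other times, and 6 and 6 passed the test of the difference between times.

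That test asked whether the α7HMZ minus WT difference at 13:30 differed from the mean of the differences at 10:30 and 20:30. Of 13334 genes, 16 stood higher at 13:30 (0.12%) and 20 lower (0.15%), or 0.27% in all, by edgeR at an adjusted p under 0.05, and 1860 had an unadjusted p under 0.05. Of the 36 genes, 12 of the higher and 16 of the lower set also passed at 13:30 itself, and 9 and 13 passed in the opposite direction at 10:30 or 20:30. Only 5 of the higher and 4 of the lower set also passed, in the same direction, both against 10:30 alone and against 20:30 alone. Set against 10:30 alone, the difference at 13:30 was higher in 153 (1.15%) and lower in 145 genes (1.09%), or 2.23% in all. Against 20:30 alone it was higher in 15 (0.112%) and lower in 15 genes (0.112%), or 0.225% in all. The libraries of 10:30 were on another flow cell, with both genotypes on the same one, and 1 of the α7HMZ libraries there held 50.8% of its reads in Rn45s, a ribosomal RNA precursor.

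**Figure D4:**
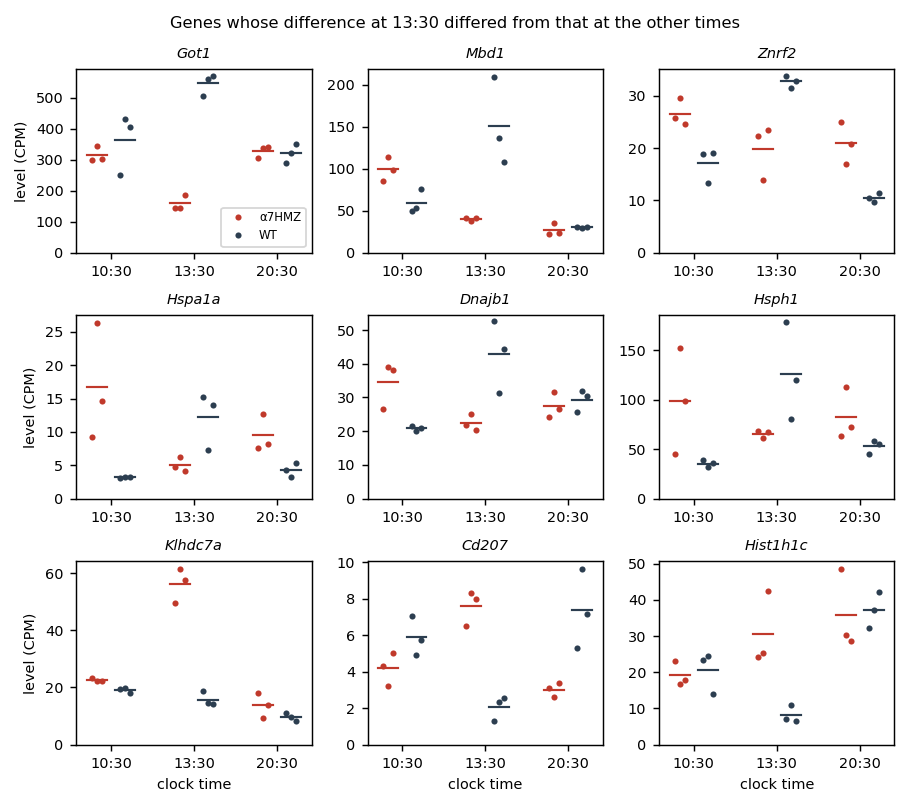
Level in each liver (CPM, linear axis from 0) at 10:30, 13:30 and 20:30, α7HMZ left of WT with bars at the group means, for 9 genes whose genotype difference at 13:30 differed from the mean of the other times. Got1 lies at 144 to 187 CPM in the α7HMZ group and 507 to 570 CPM in the WT group at 13:30, and the groups overlap at 10:30 and 20:30.

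Got1, the cytosolic aspartate aminotransferase, was lower in α7HMZ livers at 13:30 only. It was read at 144, 146 and 187 CPM in α7HMZ livers, against 507, 562 and 570 CPM in WT livers at 13:30 (log2 fold change -1.78 ± 0.16 SE, adjusted p = 4.99e-07). The values overlapped at 10:30 (300, 344 and 302 CPM in the α7HMZ group, against 250, 432 and 406 CPM in the WT group) and at 20:30 (307, 336 and 340 CPM in the α7HMZ group, against 290, 321 and 350 CPM in the WT group). The difference at 13:30 minus the mean of the other times was -1.70 (adjusted p = 0.000531). Of the 3 times, WT livers held their highest values at 13:30 and α7HMZ livers their lowest.

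Mbd1 encodes a methyl-CpG binding protein. At 13:30 it was at 41.1, 37.5 and 41.7 CPM in α7HMZ livers, against 209, 137 and 108 CPM in WT livers. In the morning, at 10:30, it was at 85.1, 114 and 98.7 CPM in α7HMZ livers and at 49.9, 52.9 and 76.1 CPM in WT livers, the reverse order, and at 20:30 at 22.4, 35.2 and 23.1 CPM in α7HMZ livers, against 31.2, 29.3 and 30.2 CPM in WT livers. The difference at 13:30 minus the mean of the others was -2.20 (adjusted p = 0.000603). Znrf2, a ubiquitin ligase gene, was at 22.2, 13.9 and 23.4 CPM in α7HMZ livers and at 33.9, 31.6 and 32.9 CPM in WT livers at 13:30, below WT, and was above WT at both other times (test of the difference -1.54, adjusted p = 0.00314). Gm826 behaved in part alike: it was lower at 13:30 and higher at 10:30 (1.77).

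In the other direction, Cd207, which encodes langerin, was at 6.51, 8.30 and 7.98 CPM in α7HMZ livers and at 1.29, 2.35 and 2.56 CPM in WT livers at 13:30. Levels were 4.30, 3.23 and 5 CPM in the α7HMZ group and 7.05, 4.90 and 5.76 CPM in the WT group at 10:30 and 3.09, 2.60 and 3.37 CPM in the α7HMZ group and 5.28, 9.65 and 7.14 CPM in the WT group at 20:30. α7HMZ livers were thus above WT at 13:30, overlapped with WT at 10:30 and were below WT at 20:30 (difference 2.74, adjusted p = 0.000531). Klhdc7a, which encodes a kelch-domain protein, was at 49.7, 61.6 and 57.6 CPM in α7HMZ livers and at 18.7, 14.5 and 14.1 CPM in WT livers at 13:30, while at 10:30 it was at 23.2, 22.1 and 22.4 CPM in the α7HMZ group and 19.5, 19.8 and 18 CPM in the WT group. It was low at 20:30, at 18.2, 9.28 and 13.9 CPM in the α7HMZ group and 10.9, 9.78 and 8.36 CPM in the WT group (difference 1.46, adjusted p = 0.0042). The linker histone gene Hist1h1c was higher at 13:30 (24.3, 25.3 and 42.5 CPM in the α7HMZ group, against 7, 10.9 and 6.48 CPM in the WT group, log2 fold change 1.89) and did not pass at 10:30 (-0.11) or 20:30 (-0.05), a difference of 1.97.

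Kalrn (0.96) and Ttc23 (0.87) were below WT at 10:30 and 20:30 and at or above WT at 13:30. Ttc23 did not pass the test at 13:30 itself (0.22, adjusted p = 0.222). The transcription factor Sox5 (1.48), Dixdc1 of the Wnt pathway (1.56), the progestin receptor family member Paqr7 (1.23) and the activin subunit Inhbc (0.73) also had higher differences at 13:30. 8430419L09Rik (0.86) passed against 20:30 alone (1.28, adjusted p = 0.00139) but not against 10:30 alone (0.44, adjusted p = 0.152).

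Of 22 heat shock and cold-inducible genes, 5 fell at 13:30 (Hspa1a, Hspa1b, Dnajb1, Bag3 and Chordc1) and the cold-inducible Cirbp rose, whereas at 10:30 14 rose and 1 fell, and at 20:30 3 rose. Set against 10:30 alone, the difference at 13:30 was lower in 10 and higher in 1 of the 22 (1.09% lower over all genes tested). Against 20:30 alone it was lower in 1 and higher in 0, so the contrast in this list was mostly with 10:30. Hspa1a, an inducible HSP70, was at 4.71, 6.23 and 4.11 CPM in α7HMZ livers, against 15.2, 7.24 and 14.0 CPM in WT livers at 13:30. At 10:30 it was at 9.30, 26.3 and 14.6 CPM in the α7HMZ group and 3.12, 3.19 and 3.25 CPM in the WT group, and at 20:30 at 7.61, 12.8 and 8.25 CPM in the α7HMZ group and 4.24, 3.22 and 5.36 CPM in the WT group. The groups were apart at every time, α7HMZ below WT at 13:30 and above WT at the others (difference -3.01, adjusted p = 0.00249). Hspa1b, its near-identical copy, gave -3.02 (adjusted p = 0.00314), and since reads of the pair are hard to assign the 2 values are not separate results.

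Dnajb1, an HSP40 partner of HSP70, was at 22.0, 25.2 and 20.4 CPM in α7HMZ livers and at 52.8, 31.4 and 44.2 CPM in WT livers at 13:30 (difference between times -1.25). The co-chaperone genes Bag3 (-1.72) and Hsph1 (-2.01) were alike. Hsph1 did not pass at 13:30 itself (-0.94, adjusted p = 0.0618). In each gene WT replicate 1 of 13:30 was the highest WT liver. Without that liver the time test gave adjusted p values of 0.07 for Dnajb1, 0.142 for Bag3 and 0.137 for Hsph1, and 1 heat shock gene fell at 13:30 in place of 5. The number that fell was 2 without WT replicate 3, α7HMZ replicate 1 or α7HMZ replicate 3, and 3 without α7HMZ replicate 2. At 13:30 itself, Hspa1a (adjusted p 0.0507 to 0.0794) and Hspa1b (0.0524 to 0.119) missed the threshold without WT replicate 1 or 3 or α7HMZ replicate 1 or 3, Bag3 without WT replicate 1 (0.116) or α7HMZ replicate 2 (0.0554), and Cirbp without WT replicate 1 or 3 or α7HMZ replicate 2 or 3 (0.0809 to 0.144). Chordc1 missed it without any 1 liver other than WT replicate 2 (0.078 to 0.247) and with GC offsets (0.0915). Hspa1a and Hspa1b passed the time test whichever single fed liver was left out.

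**Figure D5:**
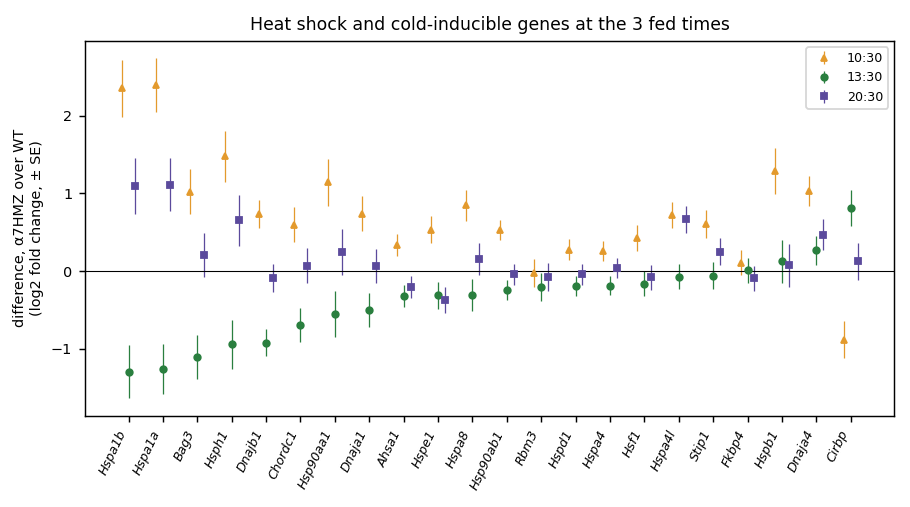
Difference between α7HMZ and WT livers (vertical axis, log2 fold change ± SE, 3 livers per group) of the 22 heat shock and cold-inducible genes at 10:30, 13:30 and 20:30. Hspa1a and Hspa1b lie below 0 at 13:30 and above 0 at 10:30 and 20:30.

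The upstream sequences of Hspa1a, Hspa1b, Hsph1 and Got1 are shown because all 4 passed the time test in the lower direction and hold the letters of a heat shock element, GAANNTTC or TTCNNGAA, in capitals. Each covers the 250 bases before a RefSeq start, 5′ to 3′ on the coding strand (build GRCm38). Hspa1a is at chr17:34972157-34972406, Hspa1b at chr17:34959239-34959488, Hsph1 at chr5:149636316-149636565 and Got1 at chr19:43524606-43524855, all on the minus strand. The first base of the match is 104, 104, 54 and 71 bases before the start, in that order. Hsph1 has 2 such windows in RefSeq, and the one shown was chosen by its number of matches. It lies partly within the span of the gene (chr5:149616843-149636498).
Hspa1a: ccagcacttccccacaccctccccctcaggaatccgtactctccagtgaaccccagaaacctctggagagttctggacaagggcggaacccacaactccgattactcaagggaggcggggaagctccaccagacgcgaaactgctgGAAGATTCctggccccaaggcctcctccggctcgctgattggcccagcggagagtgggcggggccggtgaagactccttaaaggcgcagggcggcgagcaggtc
Hspa1b: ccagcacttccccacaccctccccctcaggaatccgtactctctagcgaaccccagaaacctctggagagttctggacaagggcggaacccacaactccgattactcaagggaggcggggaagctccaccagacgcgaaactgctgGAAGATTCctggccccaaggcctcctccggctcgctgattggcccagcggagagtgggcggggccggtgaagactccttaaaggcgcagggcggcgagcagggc
Hsph1: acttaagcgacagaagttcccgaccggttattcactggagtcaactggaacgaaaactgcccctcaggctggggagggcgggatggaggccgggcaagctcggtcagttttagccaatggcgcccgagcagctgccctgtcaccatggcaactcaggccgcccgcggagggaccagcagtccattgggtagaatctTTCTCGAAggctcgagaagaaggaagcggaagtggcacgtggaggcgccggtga
Got1: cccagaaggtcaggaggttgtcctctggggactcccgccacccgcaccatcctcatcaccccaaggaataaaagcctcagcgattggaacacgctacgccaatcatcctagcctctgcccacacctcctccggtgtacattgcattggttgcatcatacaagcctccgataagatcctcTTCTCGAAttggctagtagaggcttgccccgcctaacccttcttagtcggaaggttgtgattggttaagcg
These 8-base patterns, which read alike on both strands, are common. Of the 10556 tested genes with a promoter in RefSeq, 12.3% held 1 or more in the 250 bases before the start. The shares were 14.1% of the genes that fell and 12.0% of those that rose at 13:30. Such patterns were found in 9 of 17 heat shock list genes with a promoter (52.9%). In the time test they were in 5 of 17 lower genes (29.4%) and in 3 of 14 higher genes (21.4%). The 5 lower genes include both Hspa1a and Hspa1b, which are near-identical copies. The windows of Dnajb1 and Bag3 held no such letters. The E-box CACGTG, to which CLOCK and BMAL1 bind, was in 9.76% of tested genes, 8.96% of those that fell and 7.93% of those that rose.

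Of the 23 genes of the time test that the naming rule took, 10 passed whichever single fed liver was left out: Got1, Mbd1, Hspa1a, Hspa1b, Znrf2, Gm826, Cd207, Klhdc7a, Kalrn and Ttc23. The other 13 lost the call without at least 1 liver.

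Genes near Hnf4a can share flanking sequence with the swapped allele in a mixed background. Within 5 Mb of Hnf4a, 3 of 79 tested genes rose and 13 fell (20.3%), and within 10 Mb 8 of 168 rose and 22 fell (17.9%), against 12.8% over all genes. The part of flanking sequence in these was not tested.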

How the data were processed

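Liver poly(A)+ RNA was sequenced (unstranded TruSeq v2, 75-bp single-end). The authors aligned reads to mm10 with TopHat2 2.1.1, keeping unique alignments, and counted them per gene with HTSeq 0.6.1; their raw counts, as deposited, were used, and the FPKM files and 6 fasted libraries were not. All 24 columns matched a sample.

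The 18 fed libraries were fitted together in edgeR 4.0.16 (R 4.3.3, limma 3.58.1) with 1 mean per genotype and time, TMM factors and filterByExpr, which kept 13334 of 23411 genes. Genotype was tested with the quasi-likelihood F-test at 13:30, 10:30 and 20:30, and the 13:30 difference was tested against the mean of the others and each alone. p-values were adjusted by Benjamini-Hochberg over all genes tested, with 0.05 as threshold. DESeq2 1.42.0, other scaling, filters and left-out libraries were the alternatives. The script was tested on simulated data. Named genes were Hnf4a, the 10 largest non-overlapping changes each way above 2 CPM, the 4 smallest p of each list, the 10 smallest p each way and list members of the time test, and the study's genes; other genes were named after their values were seen. Some genes that the rule took are not reported here. The comparison and the 50 gene lists were chosen with earlier results of these data known. Reads from antisense overlapping genes cannot be told apart. Nothing in the labels says that replicate numbers pair the mice, and the main fit did not pair them. Promoters came from RefSeq (GRCm38.p6), matching 10556 of the tested genes.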

Additional observations from a re-analysis of the deposited data

Results flagged for a closer look

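Genotype differences at 13:30 that differed from those at another time are given here as α7HMZ minus WT log2 differences, with edgeR's adjusted p over all genes tested. Against the mean of 10:30 and 20:30, the 13:30 difference was lower for Got1 (-1.70), Mbd1 (-2.20), Hspa1a (-3.01), Hspa1b (-3.02), Gm826 (-1.75), Znrf2 (-1.54), Dnajb1 (-1.25), Cdc45 (-1.82), Plekha8 (-0.96), Kbtbd8 (-1.74), Hsph1 (-2.01) and Bag3 (-1.72), with adjusted p values between 0.000531 and 0.0406. It was higher for Cd207 (2.74), Klhdc7a (1.46), Kalrn (0.96), Ttc23 (0.87), Hist1h1c (1.97), 8430419L09Rik (0.86), Sox5 (1.48), Paqr7 (1.23), Spsb4 (1.78), Dixdc1 (1.56) and Inhbc (0.73), with adjusted p values between 0.000531 and 0.0375.

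Against 10:30 alone, the 13:30 difference was higher for Aox1 (0.96), Ddx58 (0.95), Irf1 (1.42), Stat5a (1.10), Clec4g (0.74), Bcl6 (4.85), Cirbp (1.70) and Pla2g15 (1.00), and lower for Fkbp5 (-1.53), Klf9 (-0.77), Rcl1 (-0.77), Lpin1 (-2.48), Cyp2b10 (-2.62) and Chordc1 (-1.29). Against 20:30 alone it was higher for Pcp4l1 (1.76) and lower for Clock (-0.98) and Abcd2 (-1.33). Bcl6, Chordc1, Cirbp, Cyp2b10, Lpin1 and Pla2g15 were chosen after their values were seen. Each of these 17 genes lost the call without at least 1 fed liver, and none changed direction. The Bcl6 value rests on 1 WT liver of 10:30, read at 108 CPM against 7.90 and 6.41 CPM in the other WT livers of that time: without it the difference was 2.32 (adjusted p = 0.106).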

How the results depend on the processing

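At 13:30, 825 genes rose and 881 fell. Leaving out 1 of the 18 fed libraries in turn gave 445 to 942 higher and 606 to 953 lower genes; the higher count was 445 without WT replicate 1, 523 without WT replicate 3, 543 without α7HMZ replicate 1 and 479 without α7HMZ replicate 2 of 13:30. DESeq2 gave 826 higher and 1001 lower, GC and full quantile offsets 938 and 786, upper quartile factors 1060 and 705, the 6 libraries of 13:30 alone 1037 and 1090, and a limit of 2-fold 301 and 311. The test of 13:30 against the other times was less steady. Its 16 higher and 20 lower genes became 4 to 87 and 6 to 74 with 1 fed library left out, 126 and 170 with DESeq2, 117 and 85 without the 4 libraries richest in Rn45s, Krt19 or Ctrb1, 41 and 61 with no filter on low counts, 27 and 29 with at least 50 counts in 3 libraries, 25 and 33 with GC offsets, 20 and 35 with all 24 libraries and 10 and 14 past a limit of 2-fold. DESeq2 called all 36. The cause was not tested. No named gene that was called in the main fit or in an alternative changed direction between them. Changes of sign in genes called in neither were not counted. Same-numbered mice did not deviate together at 13:30 (correlations 0.041, -0.025 and -0.132), and a replicate block gave 749 higher and 764 lower genes at 13:30, and 16 and 13 in the time test. Of genes under 1 CPM 8.49% were called, against 20.2% above 64 CPM; the part of depth in this was not tested.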
